A study of Mus musculus with 96 samples.

Results

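Kit and Mst1r are the receptor tyrosine kinase genes described here, and they were taken as the assays named ckit and cd136 among the 96 assays of a single-cell quantitative PCR panel. They make up 2 of the 96 assays, and each was read in all 96 cells. The cells came from uteri of mice aged 7 days (postnatal day 7), were sorted 1 to a well for CD326 (EpCAM, an epithelial adhesion molecule), and form 1 group in the labels. Strain and animal are not given in the labels, which name no treatment, so the cells are not replicates of a condition and no test between groups was made. The measurement is the cycle threshold (Ct), the number of PCR cycles until product is seen, so that a lower Ct means more template and each cycle stands for about a doubling. A gene was counted as detected in a cell at a Ct below 28, and a cell without any Ct is given as 40 in the table.

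Receptor tyrosine kinases sit in the cell membrane, bind a ligand outside and phosphorylate tyrosines inside. Kit (CD117) is the receptor of stem cell factor and is known from blood progenitors, mast cells, melanocytes and germ cells. Mst1r (CD136, also called Ron) belongs to the Met family, binds macrophage-stimulating protein and is known from epithelia and from resident macrophages. The genes of the ligands, Kitl and Mst1, are not among the assays.

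In RefSeq (GRCm38.p6) Kit (gene ID 16590) spans chr5:75574987-75656722 with 4 listed transcripts, and Mst1r (gene ID 19882) spans chr9:107906858-107920383 with 10. Kit has 2 listed starts that lie 4 bases apart, and only the stretch before the first is shown. The stretches before the start sites of both genes are shown because Mst1r has a pair of listed starts that lie 8114 bases apart. The gene span opens slightly upstream of the first of them, so the last bases of that stretch lie within the span, and the second start lies well inside the gene. In the mouse a shorter Mst1r transcript from an internal start is known, which encodes a receptor without most of its extracellular part. Primer sequences are not given, so it is not known whether the assay reads transcripts from 1 start or from both. Each sequence holds the 250 bases before a start on the plus strand, with any GC box (GGGCGG on either strand) in capitals.
Kit, chr5:75574737-75574986: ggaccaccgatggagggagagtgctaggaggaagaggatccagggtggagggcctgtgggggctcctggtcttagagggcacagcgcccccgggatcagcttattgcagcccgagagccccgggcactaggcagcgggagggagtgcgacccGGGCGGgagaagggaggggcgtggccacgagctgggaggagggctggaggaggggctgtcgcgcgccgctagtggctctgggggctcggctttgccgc
Mst1r, first start, chr9:107906639-107906888: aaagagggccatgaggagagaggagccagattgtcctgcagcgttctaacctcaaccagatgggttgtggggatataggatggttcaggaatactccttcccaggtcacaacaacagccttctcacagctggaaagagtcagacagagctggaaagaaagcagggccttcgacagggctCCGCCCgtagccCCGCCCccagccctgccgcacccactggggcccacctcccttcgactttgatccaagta
Mst1r, second start, chr9:107914753-107915002: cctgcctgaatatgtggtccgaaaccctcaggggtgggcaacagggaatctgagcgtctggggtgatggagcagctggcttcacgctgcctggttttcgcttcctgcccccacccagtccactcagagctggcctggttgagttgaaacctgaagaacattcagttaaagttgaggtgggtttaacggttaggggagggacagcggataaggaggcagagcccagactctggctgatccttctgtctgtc
The Kit stretch holds 1 GC box and 70.8% G or C, and the stretch at the first Mst1r start holds 2 GC boxes and 57.6% G or C. The stretch at the second Mst1r start holds no GC box and 56.4% G or C. Among 32851 such stretches of 250 bases the median was 52.4% G or C, and 32.7% held a GC box. TATAAA, found in 12.4% of all stretches, and CCAAT, found in 33.8%, were in none of the 3 on either strand. A match of letters is a description, and nothing was measured on these stretches.

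Kit was found in most of the cells, at late Ct. It was detected in 81 of 96 cells (84.4%, exact Clopper-Pearson 95% interval 75.5 to 91.0%, which covers counting error only). Its Ct ran from 17.4 to 27.8 with a median of 23.7, and the middle 50% of detecting cells lay between 22.9 and 24.8. On the log2 scale of 28 minus Ct the mean level was 4.46 ± 1.94 (SD, n = 81 cells). Of the 81 cells, 42 had a Ct from 22 to 24 and 25 had a Ct from 24 to 26. Apart from these, 4 cells lay at a Ct of 17.4 to 18.5, and no further cell appeared before a Ct of 20.0. Since so many values lie near 24, a detection limit there left 51 cells (53.1%).

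Mst1r was found in a minority of cells, within a narrow range of Ct. It was detected in 26 of 96 cells (27.1%, interval 18.5 to 37.1%), at a Ct from 20.0 to 24.5 with a median of 23.1. Its mean level was 5.15 ± 1.20 on the same log2 scale (SD, n = 26 cells). The other 70 cells had no Ct at all, so no Mst1r value lay between 24.5 and the limit of 28. The whole range was 4.52 cycles wide, the third narrowest among the 85 assays found in at least 10 cells (Gapdh left out), whose median range was 9.24 cycles. With a limit of 24 the count was 22 cells, and with a limit of 26 it was still 26.

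**Figure D1:**
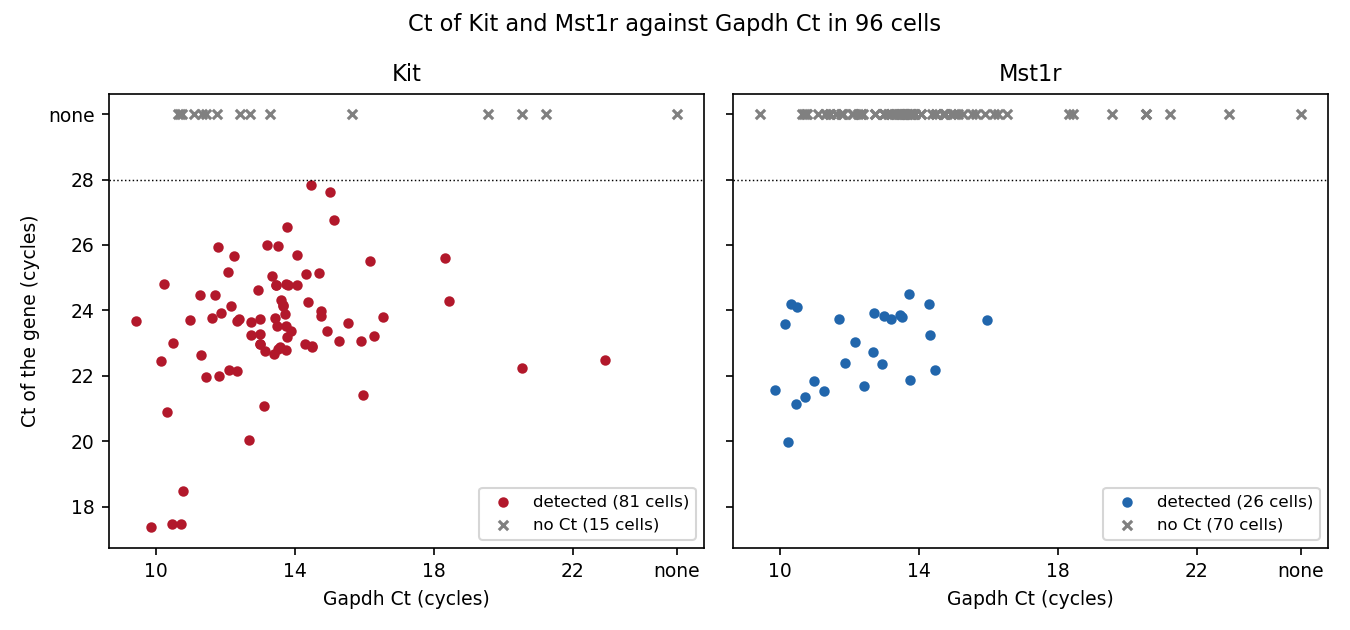
Ct of Kit (left, red) and of Mst1r (right, blue) in cycles against the Gapdh Ct of the same cell, with 1 point per cell, crosses for cells without a Ct of the gene, and the detection limit of 28 dotted. Kit Ct runs from 17.4 to 27.8 in 81 cells, with 4 cells set apart below 19, and Mst1r lies between 20.0 and 24.5 in 26 cells, none of them at a Gapdh Ct above 16.0.

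In the order of shares over the panel Kit stood at rank 20 and Mst1r at rank 71, tied with Sox2 and Abcg2. The neighbours of Kit were Itgb1 and Dppa2 with 82 cells each and Alcam and the assay cd327 with 79 each. The neighbours of Mst1r were Hoxa11, Fzd10 and Mki67 with 29 cells each above it, and Lrig1 with 24 and Nes with 23 below it. The interval of each overlapped that of its neighbours, so this order is not set beyond counting error. The interval of Kit overlapped those of 30 other assays, found in 64 to 91 cells, and that of Mst1r overlapped those of 32, found in 11 to 45 cells. Over the whole panel 52.6% of all values were detected, so Kit lay above and Mst1r below that level.

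Of the 38 genes listed as receptor tyrosine kinases or related growth factor receptors, the panel held Kit, Mst1r, Igf1r, Insr and Igf2r. Igf1r, which binds insulin-like growth factor 1, was detected in 91 cells and Insr, the insulin receptor, in 56. Igf2r, which is listed with them as a growth factor receptor but is not a kinase, was detected in 73. Kit thus stood between Igf1r and Igf2r in share, and its interval overlapped both (88.3 to 98.3% and 66.3 to 84.2%). The interval of Mst1r lay below those of the other 4 receptors, of which Insr had the lowest, 47.8 to 68.3%. Median Ct in the detecting cells was 17.8 for Igf1r, 18.0 for Igf2r and 21.0 for Insr, earlier than for Kit or Mst1r, although Ct of different assays can be set side by side only in rough order because primers differ.

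**Figure D2:**
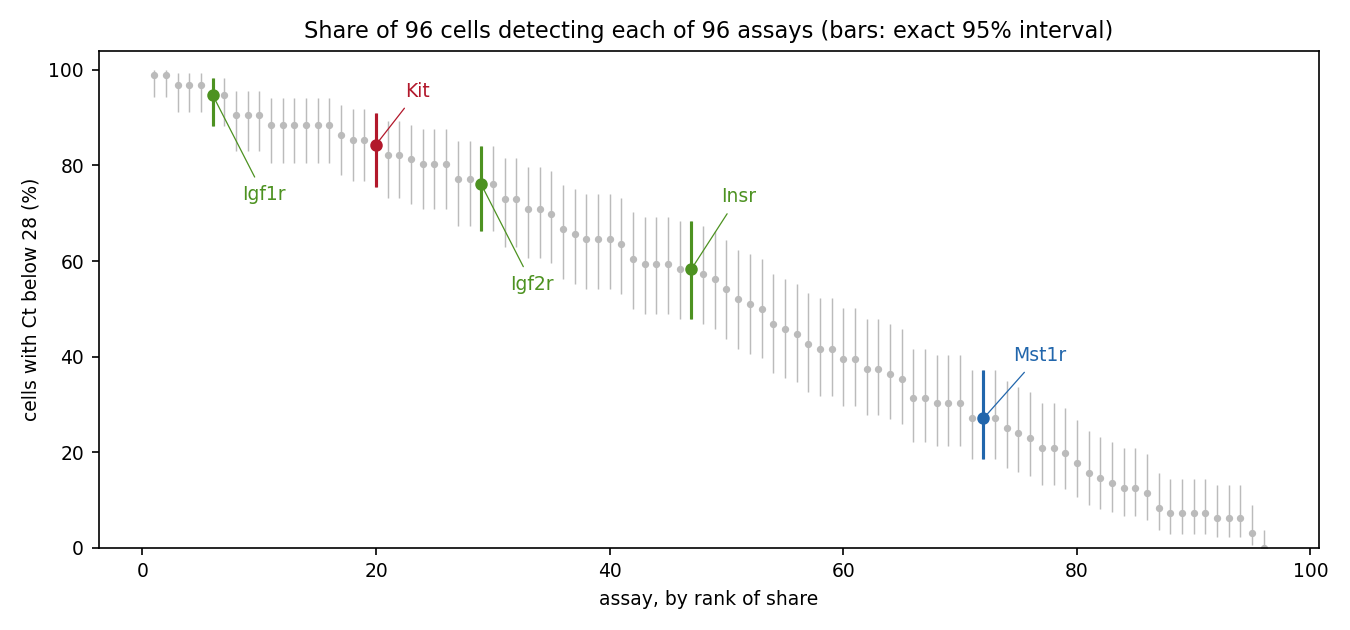
Share of the 96 cells (percent, vertical axis) that detected each of the 96 assays, ordered by share (horizontal axis), with exact 95% intervals as bars. Kit (red) lies at 84.4%, between Igf1r and Igf2r (green), and Mst1r (blue) at 27.1%, below Insr (green) at 58.3%.

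Kit was detected in fewer, and Mst1r in more, of the cells with the lower Gapdh Ct, with intervals that overlap for both genes, and neither difference was seen with actin as the measure of input. Gapdh is a glycolytic enzyme gene that was detected in 95 cells, as was actin, and both serve as references. Kit was detected in 38 of the 48 cells with the lower Gapdh Ct (79.2%, interval 65.0 to 89.5%) and in 43 of the other 48 (89.6%, interval 77.3 to 96.5%). The difference of -10.4 percentage points was the lowest among the 95 assays found in any cell, whose median difference was 18.8 points. By 24 cells from the lowest to the highest Gapdh Ct, Kit was found in 17, 21, 24 and 19. Mst1r was detected in 18 of the 48 cells with the lower Gapdh Ct (37.5%, interval 24.0 to 52.6%) and in 8 of the other 48 (16.7%, interval 7.48 to 30.2%), a difference of 20.8 points that lies close to the panel median. By 24 cells in the same order it was found in 10, 8, 7 and 1.

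Split by actin Ct instead, Kit was found in 41 of the 48 cells with the lower Ct and in 40 of the other 48. Mst1r was found in 13 of each 48. Cells with Mst1r had an actin Ct that was later than their Gapdh Ct by a median of 1.16 cycles (-1.37 to 3.16, 26 cells), and cells without it by 0.171 cycles (-5.68 to 3.09, 69 cells). The ranges overlap over most of their width. Split by the number of detected assays, Kit was found in 40 of the 48 cells with more and in 41 of the 48 with fewer, and Mst1r in 20 and in 6. That number counts the gene itself. With the gene left out of it, the share in cells with more minus that in cells with fewer was -2.08 points for Kit and 25.0 for Mst1r.

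**Figure D3:**
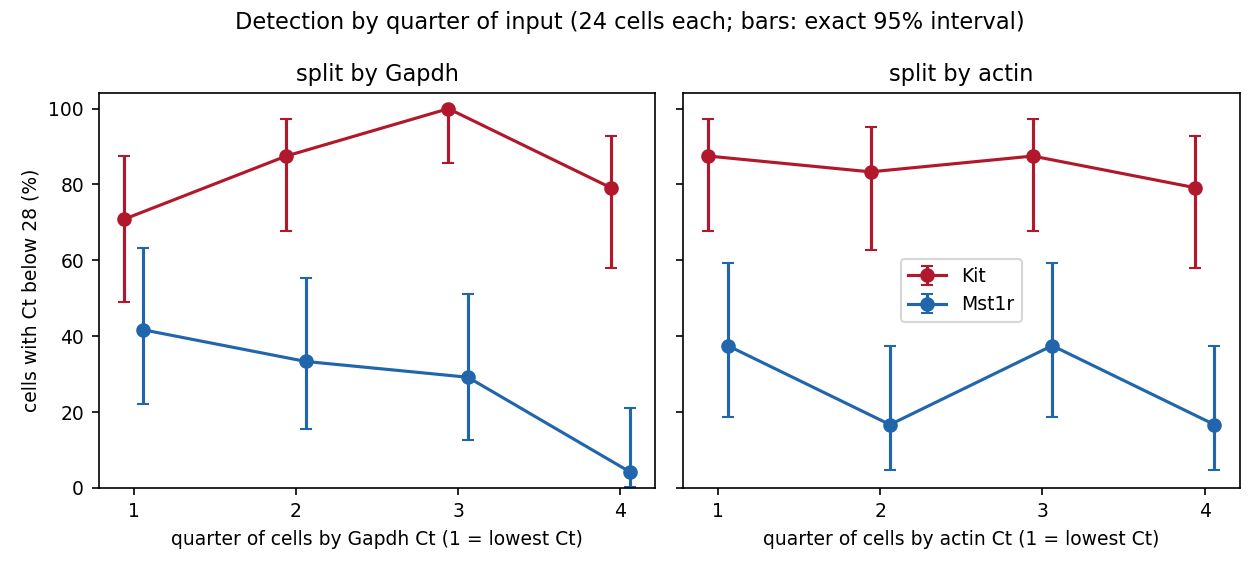
Share of cells (percent) that detected Kit (red) and Mst1r (blue) in 4 sets of 24 cells ordered by Gapdh Ct (left) or actin Ct (right), set 1 having the lowest Ct, with exact 95% intervals. Mst1r goes down over the Gapdh sets to 4.17% in the last one and shows no such order over the actin sets, where it lies at 37.5% and 16.7% in turn.

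The cells without Kit fell into shallow and well measured ones. Of 15 such cells, 5 detected 9 to 33 assays, and the other 10 detected 49 to 64, against a median of 54 over all cells. Cell 67 had no Ct in the first 71 assays of the table, among them Kit at place 62, so its lack of Kit is no measurement. Without it Kit was found in 85.3% of 95 cells (interval 76.5 to 91.7%). Of the 8 cells with a Gapdh Ct above 18 or none, which detected 9 to 30 assays, 4 detected Kit, at a Ct of 22.3, 22.5, 24.3 and 25.6, and none detected Mst1r. Kit Ct in those 4 cells lay within the range of the other cells with Kit, although they detected 13 to 30 assays in all. Across the 81 cells with Kit its Ct followed that of Gapdh weakly (Spearman rho = 0.27, Pearson r = 0.27, and r = 0.42 when the 2 cells with the most extreme Gapdh Ct were left out). For Mst1r the values were rho = 0.36, r = 0.42 and r = 0.35 over 26 cells. Outside the 8 low-Gapdh cells Kit had a rho of 0.31 and Mst1r of 0.36, where the median over 85 assays was 0.51. These correlations describe cells that share 1 chip and differ in depth, and no p is given.

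Over all its detecting cells, the low-Gapdh ones included, the spread of Kit grew when Gapdh was subtracted, as did that of Mst1r. The SD of Kit Ct was 1.94 cycles and that of Kit Ct minus Gapdh Ct was 2.51 over 81 cells, against medians of 2.19 and 2.07 over the 85 assays found in at least 10 cells. Without the 8 low-Gapdh cells the SD of Kit Ct minus Gapdh Ct was 1.96. For Mst1r the SDs were 1.20 and 1.57 over 26 cells.

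Kit and Mst1r were found together in 24 cells, Kit alone in 57, Mst1r alone in 2 and neither in 13. Mst1r was thus found in 29.6% of cells with Kit (24 of 81, interval 20.0 to 40.8%) and in 13.3% of cells without it (2 of 15, interval 1.66 to 40.5%). The intervals overlap, so a difference was not detectable with 15 cells. The 2 cells with Mst1r and no Kit had 55 and 56 detected assays. Over the 24 cells with both, the Ct of Kit and Mst1r did not order the cells alike (rho = 0.029, r = 0.22). The 4 cells with the earliest Kit had a Gapdh Ct of 9.85 to 10.8, and 3 of them carried Mst1r, at a Ct of 21.1, 21.3 and 21.6. With a limit of 24 both genes were found in 11 cells.

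**Figure D4:**
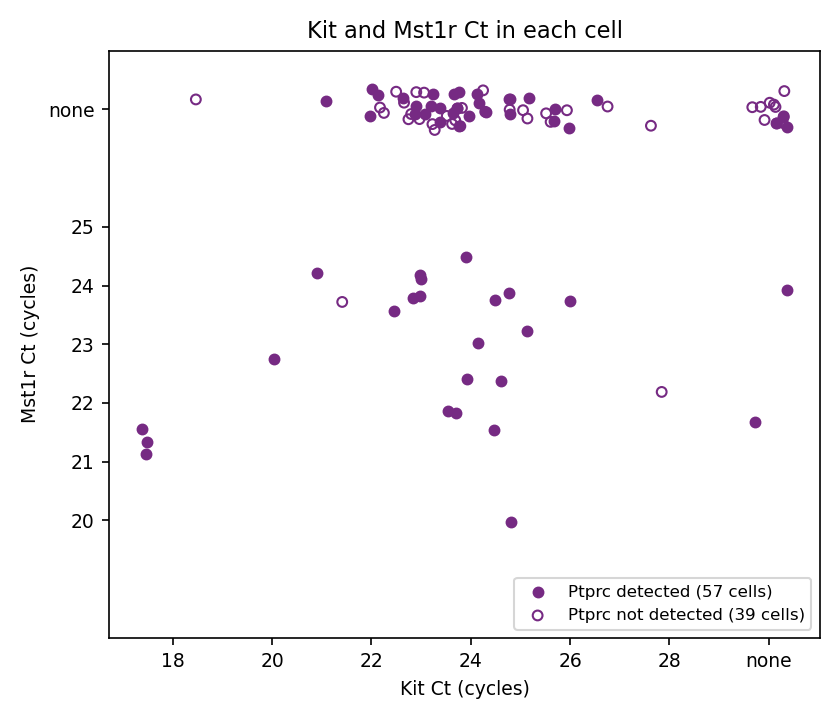
Mst1r Ct (vertical axis, cycles) against Kit Ct (horizontal axis, cycles) for the 96 cells, with cells without a Ct placed at the mark "none" with random shifts. Filled points detected Ptprc and open points did not, and 24 of the 26 cells with Mst1r are filled.

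The cells with Mst1r nearly all carried Ptprc. Ptprc (CD45, the leukocyte phosphatase gene) was detected in 24 of 26 cells with Mst1r (92.3%, interval 74.9 to 99.1%) and in 33 of 70 cells without it (47.1%, interval 35.1 to 59.4%). This difference of 45.2 percentage points was the largest among 75 assays found in 10% to 90% of cells, whose median difference was 11.3 points, with 60 positive and 15 negative. Enpep, an aminopeptidase gene, followed with 25 of 26 and 37 of 70 cells, then Il17ra, the interleukin 17 receptor gene, with 21 and 27, and Cd34, a gene of blood progenitors and endothelium, with 20 and 29. Depth moved with Mst1r, since its cells detected a median of 55.5 other assays (39 to 74) and the rest 50.5 (9 to 78). In the 48 cells with the most detected assays, a number that counts Mst1r and Ptprc too, the counts for Ptprc were 20 of 20 cells with Mst1r and 19 of 28 without. In the other 48 they were 4 of 6 and 14 of 42. In the 48 with the most detected assays the difference was 28.6 points for Enpep and 22.9 for Il17ra, against 43.3 and 42.2 over all cells. Without the 8 low-Gapdh cells, none of which carried Mst1r, Ptprc was found in 24 of 26 and 33 of 62 cells, and over the 75 assays 54 differences were positive and 21 negative, with a median of 6.45 points. The 2 cells with Mst1r and no Ptprc had a Gapdh Ct of 14.5 and 16.0.

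Of the 2 leukocyte and blood progenitor markers measured, Ptprc and Cd34, both were more frequent in cells with Mst1r. Their summed level (28 minus Ct) had a median of 12.9 in cells with Mst1r (0 to 20.4) and of 5.25 in cells without (0 to 19.2), so the ranges overlap. Neither marker was found in 2 of 26 cells with Mst1r and in 29 of 70 without. Of the 3 endothelial markers, Eng, a TGF-beta co-receptor gene, was detected in 8 of 26 cells with Mst1r and in 5 of 70 without, and Pecam1 in 26 and 67. Cd34 is on the endothelial list too, so the endothelial and leukocyte sums share it and are not separate results. The summed endothelial level had a median of 19.5 in cells with Mst1r (11.9 to 29.8) and of 13.5 in cells without (0 to 24.6). The cells without Mst1r include all 8 low-Gapdh cells, and the sums were not taken without these. In the other 88 cells Pecam1 was found in every cell, and Eng and Cd34 were still more frequent with Mst1r. Of the 6 stromal markers 5 were more frequent in cells with Mst1r and 1, Thy1, less, with a median difference of 5.66 points. Over the 75 ranked assays 60 were more frequent, with a median of 11.3, so this count is near the share of the panel. Without the low-Gapdh cells 4 stromal markers were more frequent and 2 less, where 54 of the 75 assays were more frequent. Mcam, an adhesion gene of vessel walls, was found in 8 of 26 cells with Mst1r and in 7 of 70 without, and Vim, the intermediate filament gene, in 3 and 4. The part of such cells in the values of Mst1r was not tested.

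Epithelial genes were present in the same cells. All 26 cells with Mst1r carried Krt8, Krt18 and Krt19, keratins of simple epithelium, and 24 carried Cdh1, the E-cadherin gene. Without Mst1r these were found in 61, 65, 67 and 61 of 70 cells, which include all 8 low-Gapdh cells. Of the 6 epithelial markers 5 were more frequent with Mst1r and 1 less, with a median difference of 4.73 points, where 60 of the 75 ranked assays were more frequent and the median was 11.3. Without the low-Gapdh cells 3 were more frequent and 3 less, with a median of 0.19, and Cd24a and Cdh1 changed sign. The median over the 75 assays was then 6.45. Epcam was detected in 19 of 26 cells with Mst1r and in 55 of 70 without, and 18 of the 26 carried Epcam and Ptprc together, as did 29 of the 70. Of the 7 cells with Mst1r and no Epcam, 6 carried Ptprc. Where detected, Krt18 had a median Ct of 17.2 in cells with Mst1r (10.5 to 22.3) and of 14.8 in cells without (9.68 to 23.0). The summed level of the 6 epithelial markers had a median of 54.6 in cells with Mst1r (25.6 to 81.8) and of 58.0 in cells without (5.50 to 82.3). The groups overlap over most of that range.

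Wnt7a, which encodes a WNT ligand made by the uterine epithelium, had the most negative difference. It was found in 11 of 26 cells with Mst1r (42.3%, interval 23.4 to 63.1%) and in 41 of 70 without (58.6%, interval 46.2 to 70.2%), intervals that overlap. Hopx, a homeobox gene, with 7 and 29 cells and Hprt, a purine salvage gene, with 15 and 49 came next. In the 48 cells with the most detected assays Wnt7a was found in 11 of 20 cells with Mst1r and 25 of 28 without, and Hprt in 14 of 20 and 25 of 28.

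Esr1, the estrogen receptor alpha gene, was found in all 26 cells with Mst1r (interval 86.8 to 100%) and in 48 of 70 without (68.6%, interval 56.4 to 79.1%). Those 70 include all 8 low-Gapdh cells. Esr1 also moved with input, since it was found in 89.6% of the 48 cells with the lower Gapdh Ct and in 64.6% of the other 48. Where detected, its Ct had a median of 19.0 with Mst1r (13.2 to 21.0) and of 20.1 without (15.7 to 23.8). Hoxa11, a homeobox gene of the uterus, was found in 13 of 26 cells with Mst1r and in 16 of 70 without. Its Ct in those cells had a median of 21.0 with Mst1r (16.4 to 27.6) and of 25.6 without (22.3 to 27.9), and 9 of the 13 Ct values with Mst1r lay below the earliest of the 16 without.

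The likeness of each assay to Mst1r was also taken as the Spearman rho of levels over the 96 cells once the straight-line dependence on detected assays per cell had been removed. Over 85 assays found in at least 10% of cells, the 5 highest were Eng (rho = 0.44, Pearson r = 0.39), Hoxa11 (0.42 and 0.48), Dppa2 (0.38 and 0.29), Esr1 (0.35 and 0.42) and Mcam (0.35 and 0.21). The 3 lowest were Wnt7a (-0.49 and -0.48), Epcam (-0.37 and -0.39) and Krt18 (-0.37 and -0.38). The median absolute rho of Mst1r was 0.19. Eng and Mcam were each shared with 8 cells of Mst1r, so their rho rests on few detecting cells. The measure has a limit for genes found in few cells, because in cells without either gene the residuals follow the fitted lines alone. In the 65 cells with neither Eng nor Mst1r, for example, the residuals of both had a rho of 1, since both lines sloped upward. Without the 10% of cells with the fewest detected assays the line of Eng sloped downward, that rho was -1 in 55 cells, and the likeness of Eng to Mst1r was 0.0083. With no fit on detected assays the rho of Eng was 0.36, of Hoxa11 0.34, of Dppa2 0.55, of Esr1 0.56 and of Mcam 0.26. On that scale the negative values were smaller in size, at -0.17 for Wnt7a, -0.12 for Epcam and -0.15 for Krt18.

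**Figure D5:**
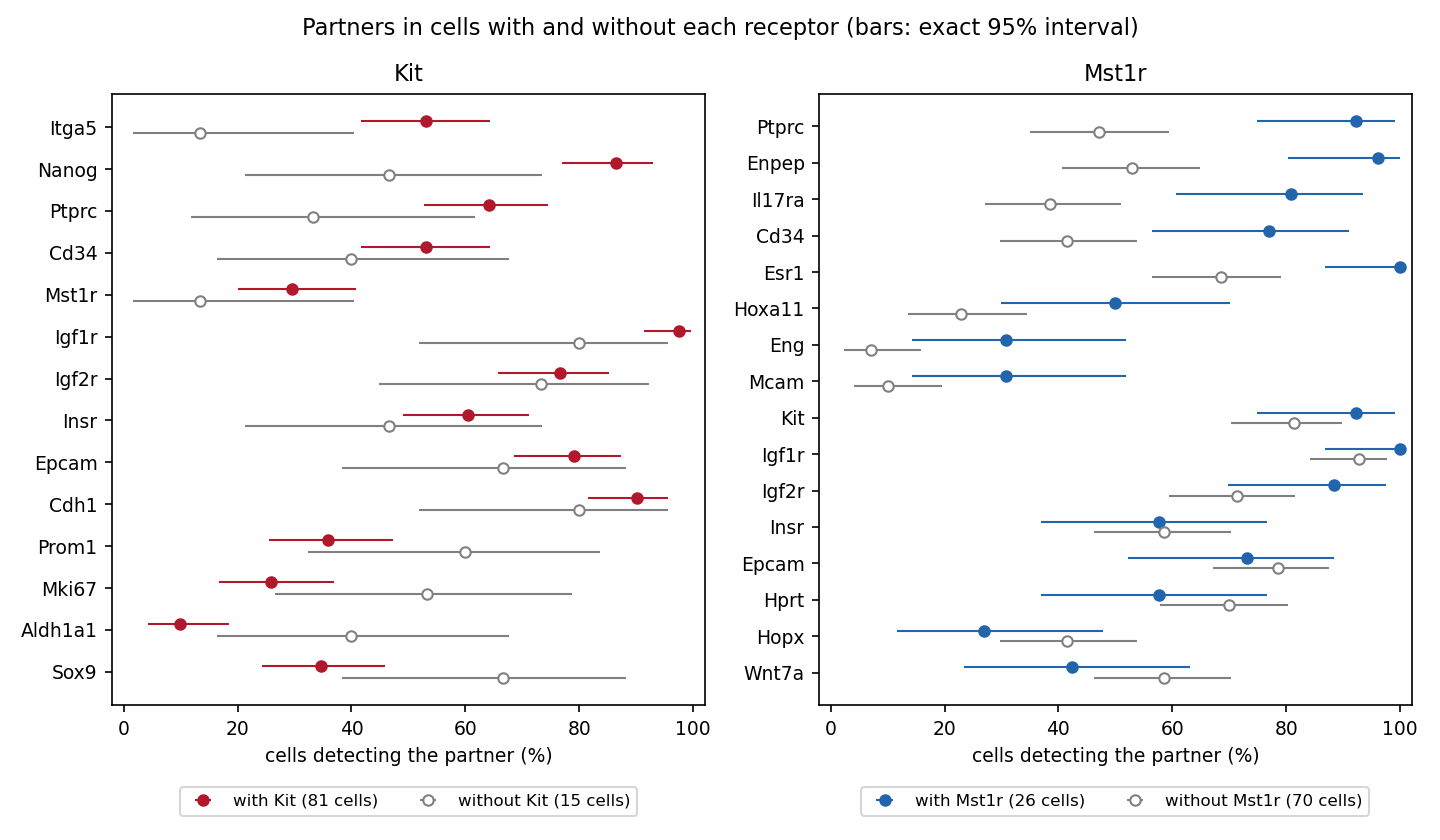
Share of cells (percent) that detected each partner gene, in cells with Kit (left, red, 81 cells) or with Mst1r (right, blue, 26 cells) and in cells without the receptor (open grey, 15 and 70 cells), with exact 95% intervals. Intervals are apart for Ptprc, Enpep, Il17ra, Cd34 and Esr1 with Mst1r and for Itga5 and Nanog with Kit, and they overlap for Sox9 with Kit and Wnt7a with Mst1r. Most of these partners were picked for large differences in the same cells, so intervals that are apart are no test. Without the low-Gapdh cells, for which no intervals are drawn, the difference with Kit was 36.4 points for Itga5 and 27.3 for Nanog, against 39.8 for each over all cells.

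The highest rho with Kit was 0.28, below the 5 highest with Mst1r. Over the same 85 assays its 5 highest values were Itga5 (rho = 0.28, r = 0.26), Pecam1 (0.24 and 0.23), actin (0.23 and 0.18), Itga3 (0.21 and 0.21) and Cd9 (0.18 and 0.13). The lowest were Esr1 (-0.34 and -0.26), Igf2r (-0.26 and -0.22) and Alcam (-0.22 and -0.17), and the median absolute rho was 0.091. The value of Esr1 is close in size to some of those named for Mst1r, and with no fit on detected assays it was -0.16. Correlations of this size are no finding here, whether with Kit or with Mst1r, for which the median absolute rho was 0.19. Pecam1, whose protein joins endothelial cells, was detected in all 81 cells with Kit and in 12 of 15 without, and without the 8 low-Gapdh cells in 77 of 77 and 11 of 11. Its likeness to Kit in that set was 0.14, and with a limit of 24 it was 0.099.

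By co-detection Itga5, the alpha 5 integrin gene, stood highest with Kit. It was found in 43 of 81 cells with Kit (53.1%, interval 41.7 to 64.3%) and in 2 of 15 without (13.3%, interval 1.66 to 40.5%), a difference of 39.8 points where the median over 75 assays was 7.65, with 55 positive and 19 negative. Nanog, a pluripotency gene, was found in 70 of 81 and 7 of 15 cells and Ptprc in 52 of 81 and 5 of 15. Cells without Kit include the shallow ones, so the counts are also given without the 8 low-Gapdh cells. Over the 75 assays 32 differences were then positive and 41 negative, with a median of -2.60 points, so the excess of positive differences over all 96 cells was not seen there. Leaving these cells out did not even out the input by Gapdh. Over the 96 cells 87 assays were detected more often, and 6 less often, in the 48 with the lower Gapdh Ct. In the set without low-Gapdh cells, 10 of the 11 cells without Kit were among those 48, against 38 of the 77 with Kit. In that set Itga5 was found in 42 of 77 cells with Kit and 2 of 11 without, Nanog in 70 and 7, and Ptprc in 52 and 5.

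Sox9, Aldh1a1 and Mki67 were the assays found least often with Kit relative to cells without it. Sox9, a transcription factor gene of progenitors and glands, was detected in 28 of 81 cells with Kit (34.6%, interval 24.3 to 46.0%) and in 10 of 15 without (66.7%, interval 38.4 to 88.2%). Aldh1a1, a retinaldehyde dehydrogenase gene, was detected in 8 of 81 cells with Kit and in 6 of 15 without, and Mki67, a gene of cycling cells, in 21 and 8. Prom1 (CD133), a surface gene of some epithelial progenitors, was next with 29 and 9. These differences ran from -32.1 points for Sox9 to -24.2 for Prom1. Without the 8 low-Gapdh cells the counts with and without Kit were 28 of 77 and 8 of 11 for Sox9, 7 and 6 for Aldh1a1, 21 and 8 for Mki67 and 28 and 8 for Prom1. In that set Sox9, Prom1 and Mki67, a combination chosen after their values were seen, were found together in 5 of 77 cells with Kit and in 5 of 11 without. Of these 11 cells, 10 were among the 48 with the lower Gapdh Ct. Mki67 itself was found in 52.1% of those 48 and in 8.33% of the other 48. Within the 48 with the lower Gapdh Ct the differences with Kit were -32.6 points for Sox9, -49.5 for Aldh1a1 and -35.3 for Mki67.

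Of the 15 stem and progenitor genes listed with Kit, 9 were more frequent in cells with Kit and 6 less, with a median difference of 4.69 points, where 55 of the 75 assays were more frequent and the median was 7.65. Without the 8 low-Gapdh cells 4 of the 15 were more frequent and 10 less, with a median of -7.79 points. Over the 75 assays 32 were then more frequent and 41 less, with a median of -2.60. Of the 5 other genes listed as ligands or partners, Cd44, Itga6, Ptprc, Ctnnb1 and Myc, all were more frequent with Kit, by a median of 18.0 points, and all with Mst1r, by 15.7. With Mst1r 60 of the 75 assays were more frequent, by a median of 11.3. Without the low-Gapdh cells Ptprc and Itga6 were still more frequent with Kit, and Cd44 (-6.49 points), Ctnnb1 (-5.19) and Myc (-9.09) were less frequent. With Mst1r all 5 were more frequent in that set, by a median of 6.45, which was also the median over the 75 assays. Of the 5 mast cell and 4 melanocyte markers listed none was measured. Of the 4 germ cell markers measured, Nanog was found in 77 cells, Sall4 in 57, Pou5f1 in 7 and Lin28a in 0 of 96. The 0 allows a share of up to 3.12% at 3 counts of 96 and of up to 3.77% by the exact interval. With Kit 2 of the 4 were more frequent and 1 less. With Mst1r 3 were more frequent and 0 less, where 60 of the 75 assays were more frequent. Both counts were the same without the low-Gapdh cells. Their summed level had a median of 10.3 with Kit and 8.78 without, and of 18.1 with Mst1r and 9.12 without, with ranges that overlap. The 6 epithelial markers were all more frequent with Kit over the 96 cells, by a median of 11.2 points, but without the low-Gapdh cells 2 were more frequent and 4, Cd24a, Cdh1, Krt18 and Krt19, less, with a median of -1.30. Over all cells their summed level had a median of 56.7 in cells with Kit (5.50 to 82.3) and of 52.4 in cells without (6.70 to 82.1). Epcam was detected in 64 of 81 cells with Kit and in 10 of 15 without, with a median Ct of 21.2 (15.3 to 24.9) and of 17.8 (15.2 to 24.4).

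Among the receptors, Igf1r was found in 79 of 81 cells with Kit and in 12 of 15 without, Igf2r in 62 and 11, and Insr in 49 and 7. Without the low-Gapdh cells the counts were 76 of 77 and 11 of 11 for Igf1r, 62 and 10 for Igf2r, and 47 and 7 for Insr, so that each was slightly less frequent with Kit. With Mst1r the counts were 26 of 26 and 65 of 70 for Igf1r, 23 and 50 for Igf2r, and 15 and 41 for Insr. The intervals of each receptor overlapped in cells with and without Mst1r.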

How the data were processed

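The deposited table of raw Ct values holds 96 assays in 96 cells, per the file headers without normalization. Per the labels' protocols, CD326-positive cells of the uterus were sorted singly, lysed and preamplified in a kit that joins reverse transcription and PCR, and run with the dye EvaGreen on a Fluidigm Biomark chip. Of primers and threshold settings nothing is given in the sources used here. The authors also deposited a ratio table, per the file headers the fold relative to Gapdh and to cell 1, and recomputing it from the Ct matched all 9216 values to within 6.55e-06 (log2).

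Columns were matched to cells by number, Kit and Mst1r by the RefSeq synonyms of ckit and cd136, and start-site sequences come from RefSeq (GRCm38.p6). Of 96 assay names, 79 are a RefSeq symbol or synonym, 12 were read through a protein, CD or short name and 5 keep the name in the file. Detection was a Ct below 28 and the level 28 minus Ct, 0 where undetected. A cell detected 9 to 78 assays (median 54), which is its depth, and shares carry exact 95% intervals. Co-detection was ranked for assays in 10% to 90% of cells. Partners with the 5 highest and 3 lowest rho in likeness, the 3 largest and 3 smallest differences in share, neighbours in share, references, receptors and cell type markers were named. Prom1 as a further partner of Kit and Cd34 as one of Mst1r follow that order, and Hoxa11 Ct values were described, after the values were seen. Members and lists were chosen with earlier results of these data known. The likeness measure was run on simulated data in which a planted partner took most of its Ct values from the member itself. Such a near-copy cannot show how the measure behaves at the weaker likeness found here or for genes found in few cells. No cells were removed, and no p-value was computed because cells of 1 group are not replicates. Python 3.11.15, numpy 2.4.6, pandas 2.3.3, scipy 1.17.1 and matplotlib 3.10.9 were used.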

Additional observations from a re-analysis of the deposited data

How the results depend on the processing

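Across the alternatives the main results gave 91 values. Of these, 79 stayed within their interval, 1 SD, 0.1 in rho, 10 percentage points or 1.5 times, 11 moved and 1 changed sign. Some of the 79 could not change, so their number does not measure how stable the results are. Neither gene had a recorded Ct of 28 or more, so counting any recorded Ct returned the same shares, mean levels and cells with both. The low-Gapdh cells held no Mst1r, so leaving them out returned the same Mst1r mean level, SD of Ct minus Gapdh Ct and cells with both. The share difference of Kit between cells of lower and higher Gapdh Ct, -10.4 points, was 2.08 by actin Ct, and that of Mst1r, 20.8 points, was 0 by actin Ct. The cause was not tested. At a limit of 24 cycles Kit was found in 53.1% of cells, its mean level 1.46, the mean level of Mst1r 1.40 and the cells with both 11. These levels, and 3.15 for Mst1r with a limit of 26 or 1.39 with undetected cells at 0, follow from the scale, as do 9.39 for Kit and 8.93 for Mst1r on the log2 deposited fold. Cells with both numbered 15 among the 63 that detect Gapdh, actin and Hprt. The median likeness of the 5 partners of Mst1r, 0.38, was 0.48 with Gapdh subtracted in cells with both genes, where only 3 of them had at least 10 cells. That setting takes the same Gapdh Ct from both genes, a shared term that can itself give a positive rho. In that setting Igf2r (0.22) and Alcam (0.054) with Kit and Dppa2 (-0.027) and Epcam (0.16) with Mst1r changed sign, as did Alcam with Kit (0.021) without the fit on depth. Of 60 co-detection differences in sets of cells chosen after the data were seen, 21 moved by over 10 points and none changed sign. These were the 3 largest and 3 smallest differences of each gene, taken again in parts of the same cells. A change of sign was thus unlikely from the outset, and its absence shows little. Over the 75 ranked assays the positive differences with Kit numbered 55 in all cells and 32 without the low-Gapdh cells. The share of Kit depends on cells of late Ct, and the 15 cells without Kit limit the precision of comparisons with them. No paired analysis was possible because the labels give a single group.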

Other observations

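The 4 cells with the earliest Kit Ct are cells 59, 94, 35 and 24. All 4 carried Epcam, and 3 carried Ptprc and Mst1r. They detected 54 to 72 assays. Cell 24 was the one with neither Ptprc nor Mst1r, at a Kit Ct of 18.5 and an Epcam Ct of 15.3.

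The earliest Mst1r Ct, 20.0, was in cell 70, whose Kit Ct was 24.8 and whose Ptprc Ct of 16.2 was the earliest of all cells. The latest Kit Ct, 27.8, was in cell 81, which carried Mst1r at 22.2 without Epcam or Ptprc.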
